A study of Mus musculus with 5 samples.

Results

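Chromatin and histone modifiers, the enzymes that write and erase marks on histones and DNA and the proteins that read those marks or move nucleosomes, were followed between the retina of Rb-mutant mice and that of wild-type mice. Members were all spots whose single gene symbol in the platform annotation begins with one of the family prefixes Kdm, Kmt2, Kat, Hdac, Sirt, Setd, Suv, Ezh, Eed, Suz12, Rbbp, Smarc, Chd, Arid, Brd, Cecr2, Mbd, Dnmt3, Tet, Cbx, Phf, Ing, Prmt, Ehmt or Baz. This took 147 spots of 90 genes, out of 7722 spots with a single symbol. Each of 5 dual-colour spotted arrays compared mutant RNA, in channel 2, with wild-type RNA, in channel 1, in retina that the series title describes as explants, that is, kept in culture. The mutant group is labelled only as Rb- mice and the other group as wild type. Neither the allele, any Cre driver, the strain nor the age is stated in the labels. Whether each of the 5 arrays stands for its own animal or culture is also not stated, so p-values here cover the spread from array to array, which may be technical. In whole tissue, fewer cells of a type and less RNA per cell cannot be told apart.

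Chromatin regulators matter for Rb because the Rb protein represses E2F target genes partly by recruiting them. Rb and its relatives bind histone deacetylases, the histone-binding protein Rbbp4, the lysine demethylase Kdm5a, the SWI/SNF remodelling ATPases and Arid4a, and they can place histone methylation that HP1 proteins, encoded by Cbx1, Cbx3 and Cbx5, then read. In the developing retina, Polycomb complexes and SWI/SNF complexes take part in the step by which dividing progenitors leave the cycle and become neurons. In neurons, SWI/SNF exchanges some of its subunits for neuron-specific ones, among them Actl6b.

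The value of a spot is its deposited log2 ratio between the 2 channels after centring of each array on its median. The labels do not settle which RNA is on top of the ratio, so signs are given as deposited and neither sign is assigned to the mutant. Means and shared signs take the ratio to run the same way on all 5 arrays, which the labels do not state either. A ratio also gives no level of expression, so the labelled tissue could not be checked by marker levels. Of the 147 member spots, 119 spots of 81 genes had a value on at least 4 arrays and were tested, 89 of them on all 5. A further 26 spots had values on 1 to 3 arrays and 2 on none, and 9 genes (Cbx7, Cbx8, Kdm3b, Kdm4b, Phf20l1, Phf7, Setd7, Sirt3 and Tet2) had no tested spot. Of the Rb-associated members, no spot was listed for Rbbp7, Suv39h1, Suv39h2, Kdm5a, Smarca2, Ezh2 or Eed.

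The arrays did not resemble each other closely. Markers of rods, 9 genes measured, lay -3.06, 0.19, -3.49, -0.40 and 0.16 across arrays 1 to 5 relative to the median of all 3739 genes measured on every array, and 11 genes of dividing progenitors lay 2.28, -0.25, 1.85, 0.65 and -0.05 across arrays 1 to 5. Arrays 1 and 3 thus stood apart, with rod genes far on the negative side and genes of cell division on the positive side. Cone markers, 6 genes, lay -0.92, 0.12, -1.33, 0.36 and -0.25 across arrays 1 to 5. The part of these differences in the values of chromatin genes was not tested. No marker of pigment epithelium, lens, microglia or blood was measured on all 5 arrays, and 1 of 4 vessel markers was.

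As a group, chromatin genes lay close to the typical gene on the arrays. Their median over the 71 member genes measured on every array, less that of all genes, came to -0.01, 0.03, 0.08, 0.01 and 0.18 across arrays 1 to 5, which averages 0.06 ± 0.08 (SD, n = 5). The numbers of members above the median of all genes were 35, 39, 42, 36 and 46 of 71 on arrays 1 to 5. On arrays 1 and 3, where the rod and division lists lay furthest out, the chromatin median was -0.01 and 0.08. A median near 0 can hold members that lay far out on both sides. Pearson's r between arrays 1 and 3 was 0.55 over member genes and 0.42 over all genes. The spread among members was near that among all genes, with a scaled median absolute deviation of 0.87, 0.37, 0.78, 0.51 and 0.41 among members and of 0.83, 0.40, 0.86, 0.52 and 0.55 among all genes on arrays 1 to 5.

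**Figure D1:**
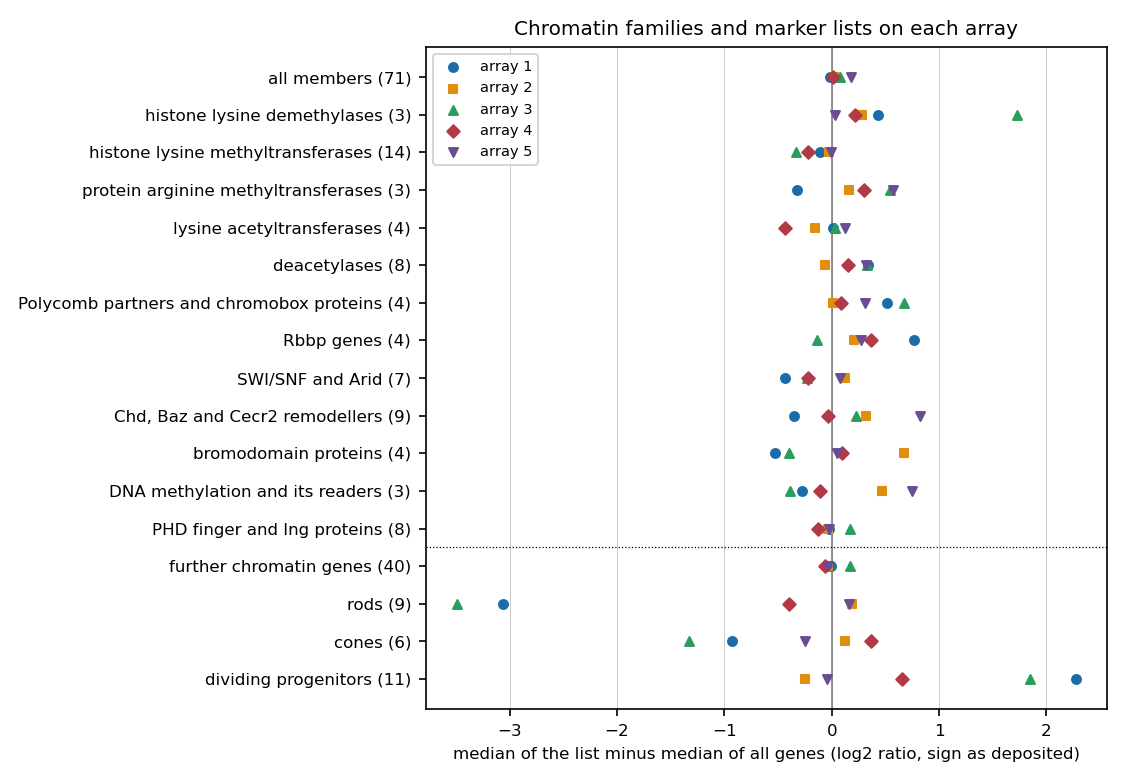
Median log2 ratio of each list minus the median of all 3739 genes (x axis, log2, sign as deposited), with 1 point for each array and the number of measured genes in brackets. The 71 chromatin genes lay between -0.01 and 0.18 on all 5 arrays, while rods and dividing progenitors, below the dotted line, were spread from -3.49 to 2.28.

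No chromatin spot passed the test. In the limma fit over all 10036 spots, 0 of 119 member spots had an adjusted p under 0.05, where 0% of all spots did, and the smallest adjusted p among members was 0.293. At an unadjusted p under 0.05 there were 7 positive member spots, or 5.88%, against 5.52% of all spots and 3.35% of the 5822 single-symbol spots. On the negative side there were 8 member spots, or 6.72%, against 5.9% of all spots and 6.18% of single-symbol spots. In either direction 15 member spots, or 12.6%, stood against 11.4% of all spots and 9.53% of single-symbol spots. The shares lay near those of the whole table, whose own smallest adjusted p was 0.26. The positive count stayed between 7 and 9 without each array in turn, while the negative count was 4 without array 1, 6 without array 2, 4 without array 3, 5 without array 4 and 2 without array 5. These fits also took spots with values on fewer than 4 arrays, so that 122 to 127 member spots were tested. As shares of the member spots the negative counts were 3.17%, 4.72%, 3.28%, 4.1% and 1.59%, against 3.4%, 4.53%, 3.53%, 3.48% and 4% of all spots tested without the same array. The positive counts were 7.14%, 7.09%, 5.74%, 6.56% and 5.56% of member spots without arrays 1 to 5 in turn. Of all spots, 5.33%, 6.85%, 5.11%, 6.34% and 5.32% were positive at that p without the same array, so these shares also lay near those of the table. With centring on the spots of all 5 arrays the member split was 9 positive and 6 negative (7.72% and 3.62% of all spots), and without centring 5 and 17 (2.69% and 18.3% of all spots).

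The positive spots were those of Mbd2, Cecr2, Kdm5b (2 spots), Kdm6a, Ing5 and Setd5, with means from 1.06 to 2.85. The negative spots were those of Kmt2c, Setd6, Phf2 (2 spots), Mbd3, Ezh1, Brd3 and Baz2a, with means from -2.56 to -0.71. The plot of these 15 spots by array shows that large means went with wide spreads, while the narrowest spreads were those of Kdm5b spot 17120, with a mean of 1.06, and Mbd3, with one of -0.72.

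**Figure D2:**
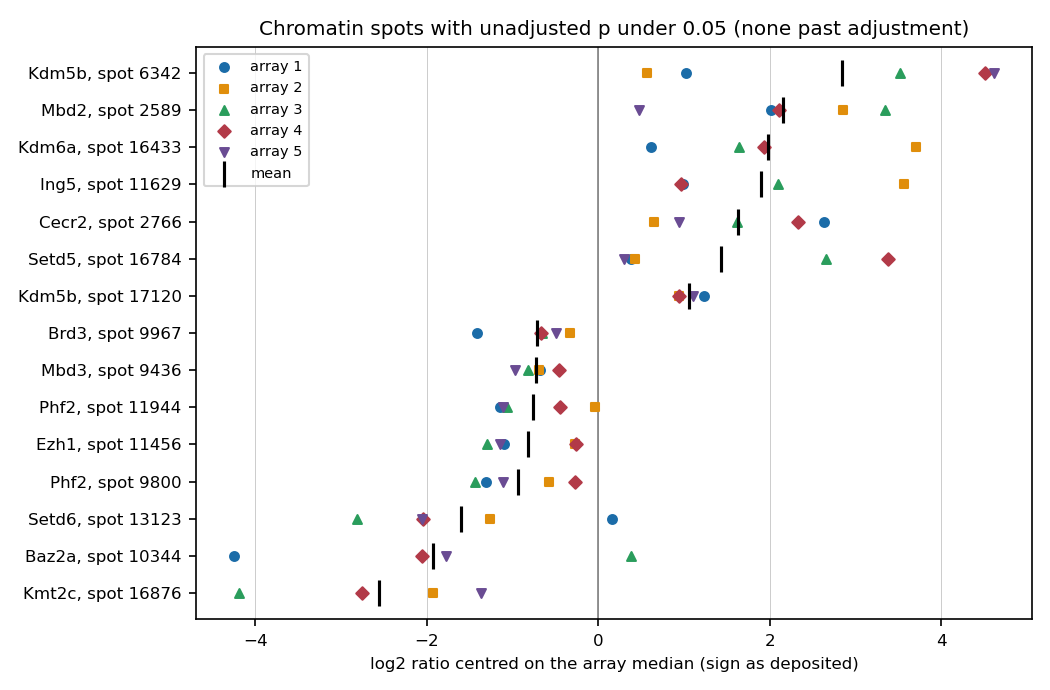
Centred log2 ratio (x axis, sign as deposited) of the 15 chromatin spots with an unadjusted limma p under 0.05, 1 point per array and a bar for the mean. None passed after adjustment (adjusted p from 0.293 to 0.435), and the 5 points of Mbd3 lie between -0.97 and -0.46.

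Among the deacetylase co-repressors through which Rb acts, 2 genes were highest on arrays 1 and 3. Hdac2, a class I deacetylase of the Sin3 and NuRD co-repressors, stood at 0.89, -0.17, 0.76, 0.32 and 0.19 across arrays 1 to 5. Its values on arrays 1 and 3 were the highest and that on array 2 was below 0. Rbbp4, the histone-binding protein that Rb, NuRD and Polycomb complexes share, had 0.89, 0.14, 0.83, 0.43 and 0.13 across arrays 1 to 5, positive on every array and again highest on arrays 1 and 3. Their means were 0.40 ± 0.43 and 0.48 ± 0.36 (SD, n = 5 each), with unadjusted p of 0.184 and 0.104. Hdac1, the close relative of Hdac2, had 0.71, 0.03, -0.11, 0.01 and 0.19 across arrays 1 to 5, high on array 1 and between -0.11 and 0.19 on the others. Arrays 1 and 3 are also those on which division genes were most positive, and the part of this in the values of Hdac2 and Rbbp4 was not tested. With arrays 1 and 3 left out, Hdac2 had a mean of 0.11 and Rbbp4 of 0.23. Without centring, the means of Hdac1 spot 15443 and Hdac2 spot 6423 took the other sign, at -0.29 and -0.06, and that of Rbbp4 spot 14465 was 0.0238.

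Mbd3 and Chd4 are subunits of NuRD, which joins a deacetylase to a remodelling ATPase, and of them only Mbd3 was negative on every array. Among other NuRD subunits, Hdac2, Rbbp4 and Mta1 had positive means and Mta2 and Gatad2a negative ones, so the subunits shared no direction. Mbd3, the methyl-CpG-binding-domain subunit of NuRD, had -0.67, -0.69, -0.82, -0.46 and -0.97 across arrays 1 to 5. All 5 values were negative and lay close together, with a mean of -0.72 ± 0.19 (SD, n = 5) and an adjusted p of 0.432. Chd4, the ATPase, had -1.61, -0.03, -0.20, 0.52 and 0.55 across arrays 1 to 5, lowest on array 1 and positive on arrays 4 and 5. Its mean of -0.16 ± 0.88 (SD, n = 5) lay above the median of the means of all genes, -0.22. Hdac3, the deacetylase of the NCoR co-repressor, was on 2 spots with means of -0.39 ± 0.76 and 0.15 ± 0.23 (SD, n = 5 each), of which the one became 0.12 with arrays 1 and 3 left out and the other -0.31 without centring. Outside class I, Hdac6, the tubulin deacetylase, had means of 0.10 and -0.01 on its 2 spots, Hdac7 0.08, Hdac11 -0.22 and Hdac5 0.45, while Hdac4 and Hdac10 were spread from -2.22 to 1.39 over arrays. Sirt1, a NAD-dependent deacetylase, had 1.43, 3.03, -0.58 and 1.69 across arrays 1, 2, 4 and 5, with a p of 0.0669. Of the 12 deacetylase spots tested, 7 had a positive and 5 a negative mean. An unadjusted p under 0.05 was found for 0 of the 12, where 9.53% of single-symbol spots had one. Positive means made up 34.2% of single-symbol spots, and the difference was not tested.

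Arid4a, which binds Rb and bridges it to the Sin3 deacetylase complex, had 0.00, 0.98, 1.13, -0.40 and 1.62 across arrays 1 to 5, a mean of 0.67 ± 0.84 (SD, n = 5). Array 4 was negative and array 1 at 0, so the spread exceeded the mean. Its relative Arid4b had -0.83, 0.01, -1.74, -0.30 and 0.16 across arrays 1 to 5, lowest on arrays 1 and 3.

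HP1 proteins and Polycomb partners had a median above that of all genes on every array, though no spot passed. The median of the 4 measured genes (Cbx1, Cbx2, Cbx3 and Suz12) was higher than that of all genes by 0.51, 0.01, 0.67, 0.09 and 0.31 across arrays 1 to 5. Of 7 spots, 0 had an unadjusted p under 0.05, where 9.53% of single-symbol spots did. Cbx1, the HP1 beta protein, had 0.86, -0.15, 0.58, 0.56 and 0.61 across arrays 1 to 5, positive on all arrays but array 2. The mean of Cbx1 spot 240, 0.49, was 0.032 without centring. Cbx3, the HP1 gamma protein, had 1.44, -0.28, 0.34, 0.31 and 0.47 across arrays 1 to 5 on one spot and -0.83, 0.42, 0.59, 0.37 and -0.51 across arrays 1 to 5 on the other. Averaged over its spots Cbx3 exceeded the all-gene median on each array, although the spots themselves differed most on array 1. Suz12, the scaffold of the Polycomb methyltransferase, was on 3 spots with means of 0.17, -0.17 and -0.12, each smaller than its own SD over arrays. Without centring Cbx3 spot 5811 and Suz12 spot 503, both positive in the mean, gave -0.0018 and -0.28. Cbx2, a Polycomb reader, had -0.06, -0.04, -0.11, 0.10 and -1.67 across arrays 1 to 5, near 0 on 4 arrays and negative on array 5.

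E2F factors are held in check by Rb, so the start-site regions of the members were searched for the E2F-type letters TTTCCCGC, TTTGGCGC, TTTCGCGC and TTTGCCGC on both strands. RefSeq windows of build GRCm38.p6, from 250 bases before to 50 after each start, were matched for 71 of the 90 genes. A match stood in the windows of 4 of these 71 genes, or 5.63%, namely Cbx3, Suz12, Kat2a and Ing3, against 2.6% of the 27025 genes with a window, a set that goes beyond the genes on the arrays. Member windows were also richer in CG, with a median of 24 CG pairs against 7. The bases upstream of the start are shown for Cbx3, Suz12 and Kat2a, which carry a match, and for Rbbp4, one of several Rb partners with no exact match, with matches in capitals (for Kat2a the reverse complement of TTTGCCGC). Only exact matches were counted, and near its end the Rbbp4 window holds TTTGGCGC but for the first T. Each printed window holds at most 1 match, and none overlaps another.
Cbx3 (chr6:51470366-51470615, plus strand): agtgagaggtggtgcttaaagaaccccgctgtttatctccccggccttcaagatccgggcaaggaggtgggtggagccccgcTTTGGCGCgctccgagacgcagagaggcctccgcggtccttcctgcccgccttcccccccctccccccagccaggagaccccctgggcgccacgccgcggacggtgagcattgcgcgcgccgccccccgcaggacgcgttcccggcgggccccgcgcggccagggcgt
Suz12 (chr11:79992856-79993105, plus strand): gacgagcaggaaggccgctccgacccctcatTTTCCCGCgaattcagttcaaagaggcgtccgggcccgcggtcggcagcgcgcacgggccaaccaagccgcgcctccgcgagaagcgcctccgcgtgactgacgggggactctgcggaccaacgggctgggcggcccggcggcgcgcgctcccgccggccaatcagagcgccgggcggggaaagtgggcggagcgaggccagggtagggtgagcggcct
Kat2a (chr11:100712468-100712717, minus strand): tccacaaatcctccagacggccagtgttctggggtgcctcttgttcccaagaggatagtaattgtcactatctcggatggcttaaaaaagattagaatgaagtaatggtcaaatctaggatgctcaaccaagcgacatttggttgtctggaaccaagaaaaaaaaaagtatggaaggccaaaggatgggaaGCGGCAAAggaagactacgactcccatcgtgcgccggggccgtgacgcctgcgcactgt
Rbbp4 (chr4:129335371-129335620, minus strand): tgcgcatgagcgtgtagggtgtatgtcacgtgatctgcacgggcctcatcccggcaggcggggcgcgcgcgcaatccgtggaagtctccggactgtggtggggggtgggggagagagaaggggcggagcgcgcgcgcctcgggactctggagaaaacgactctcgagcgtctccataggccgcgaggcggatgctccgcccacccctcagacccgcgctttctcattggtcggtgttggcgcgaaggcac
The genes with a match did not share a direction. Beside the values of Cbx3 and Suz12 above, Kat2a had negative ratios on all 5 arrays and Ing3, on 4 arrays, had -0.10, 0.23, 0.14 and 0.27 across arrays 1, 2, 3 and 4. The other RefSeq start of Cbx3 has no match. A match in these letters is a description of the sequence only.

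SWI/SNF subunits, which slide and evict nucleosomes, lay on the negative side in 6 of 8 spots with the Arid genes. Among the 8, 0 had an unadjusted p under 0.05, where 9.53% of single-symbol spots did. Of all single-symbol spots 34.2% had a positive mean, so a majority of negative means is also the pattern of the table. Arid1b, a large subunit that binds DNA, had a mean of 0.41 ± 1.03 (SD, n = 4). Smarcb1, the core subunit lost in rhabdoid tumours, had -1.91, 0.14, -0.66, -0.85 and -0.19 across arrays 1 to 5, negative on 4 arrays and lowest on array 1. Its mean was -0.69 ± 0.78 (SD, n = 5) with an unadjusted p of 0.093. Smarca4, the Brg1 ATPase that binds Rb, had -1.44, 0.04, -1.15, -0.09 and 0.83 across arrays 1 to 5, most negative on arrays 1 and 3 and positive on array 5. Its mean of -0.36 ± 0.93 turned positive, to 0.26, with arrays 1 and 3 left out. Smarce1, Smarcd2 and the related remodeller Smarcad1 had means of -0.26, -0.25 and -0.35, with SDs from 0.47 to 0.94.

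**Figure D3:**
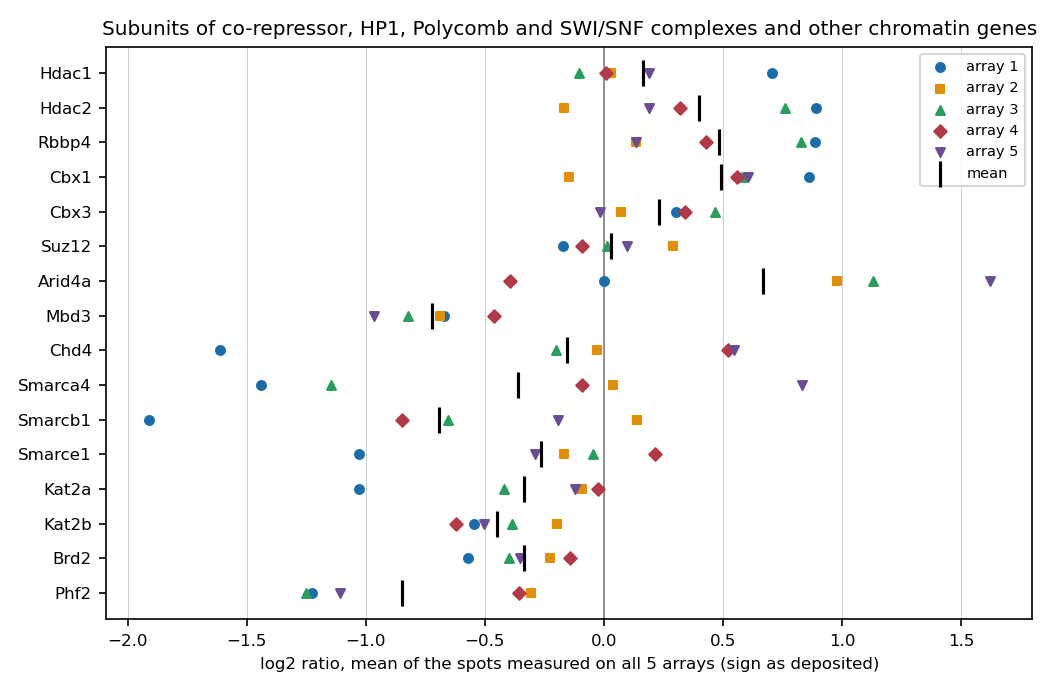
Log2 ratio of 16 chromatin genes (x axis, sign as deposited, mean of the spots measured on all 5 arrays), 1 point per array and a bar for the mean. Rbbp4 is positive and Mbd3, Kat2a, Kat2b, Brd2 and Phf2 negative on every array, while Smarca4 and Chd4 straddle 0.

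Among the lysine demethylases, which remove methyl groups from histone H3, Kdm5b had the largest mean of the 119 tested member spots. The 3 genes of the family measured on every array had a median, relative to all genes, of 0.43, 0.28, 1.72, 0.22 and 0.03 across arrays 1 to 5, with array 3 far above the rest. Kdm5b, an H3K4 demethylase of the same subfamily as the Rb partner Kdm5a, had 1.02, 0.57, 3.52, 4.52 and 4.62 across arrays 1 to 5 on spot 6342. Arrays 3, 4 and 5 were high and arrays 1 and 2 lower, with a mean of 2.85 ± 1.93 (SD, n = 5) and an adjusted p of 0.409. A different spot, 17120, had 1.24, 0.94, 0.95 and 1.11 across arrays 1, 2, 4 and 5, a mean of 1.06 ± 0.14 (SD, n = 4) with the smallest SD of any member spot on 4 arrays. The remaining spots were on the other side, with means of -0.29 ± 0.61 (SD, n = 5) for spot 1278 and -0.87 ± 1.33 (SD, n = 4) for spot 5307. The 4 Kdm5b spots therefore gave 2 positive and 2 negative means. Kdm6a, an H3K27 demethylase encoded on the X chromosome, had 0.62, 3.71, 1.64 and 1.94 across arrays 1, 2, 3 and 4, positive on the 4 arrays that measured it, with an adjusted p of 0.411. Kdm1b and Kdm3a had means of 0.39 ± 0.64 and -0.16 ± 0.37 (SD, n = 5 each), and the other Kdm3a spot one of 0.17 ± 1.45 (SD, n = 4).

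The lysine methyltransferases were the largest family, with 6 positive and 17 negative means over 23 tested spots. At an unadjusted p under 0.05 there were 1 positive and 3 negative spots of the 23. Of single-symbol spots 3.35% were positive and 6.18% negative at that p, and the difference was not tested. Over all members 46 of 119 means were positive, or 38.7%, against 34.2% of single-symbol spots, so a majority of negative means is also the pattern of the table. Kmt2c, an H3K4 methyltransferase of enhancers, had -1.92, -4.19, -2.75 and -1.37 across arrays 2, 3, 4 and 5 on spot 16876, negative on all 4 arrays, and -1.04, 0.59, -1.54, -0.48 and -0.24 across arrays 1 to 5 on spot 4779, positive on array 2. Its relatives Kmt2b and Kmt2e had means of -0.65 ± 0.68 and -0.58 ± 0.61 (SD, n = 5 each), and Kmt2e was negative on every array. Kmt2d had means of -0.48 and -0.19, and the 3 tested Kmt2a spots lay between -0.01 and 0.60.

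Ezh1, a catalytic subunit of Polycomb found in non-dividing cells, had -1.10, -0.27, -1.30, -0.25 and -1.15 across arrays 1 to 5 on spot 11456 and -0.34, 0.23, 0.60, 0.49 and -0.12 across arrays 1 to 5 on spot 13043. Spot 11456 was negative on every array and the other was not. Setd6, which methylates the NF-kappaB subunit RelA, had 0.16, -1.27, -2.81, -2.04 and -2.05 across arrays 1 to 5, strongly negative on arrays 2 to 5 and slightly positive on array 1. Setd5 had 0.38, 0.42, 2.65, 3.38 and 0.30 across arrays 1 to 5, with high values on arrays 3 and 4 and small positive ones on the rest. Setd1b, an H3K4 methyltransferase, was among the least repeatable spots, with 1.96, -4.12, 1.36, -0.41 and 0.16 across arrays 1 to 5. Setd3, which methylates a histidine of actin rather than a histone, had -0.41, -0.14, -0.91, -0.22 and -0.36 across arrays 1 to 5, and averaged below the all-gene median on each array, while its other spot, on 4 arrays, had a mean of -1.65 ± 1.81 (SD, n = 4). Setd4 had a mean of 0.40 ± 0.98 (SD, n = 5). Setd2, the H3K36 methyltransferase, and Setdb1, which silences repeats, had means of -0.41 ± 0.62 and -0.38 ± 0.54 (SD, n = 5 each), and the other Setdb1 spot one of -0.53. Ehmt2, the H3K9 methyltransferase G9a, was measured on all arrays by 3 spots, with means of -0.20, -0.35 and 0.16.

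The 5 arginine methyltransferases gave 0 spots at an unadjusted p under 0.05, where 9.53% of single-symbol spots were. Prmt1, the main enzyme of asymmetric methylation, had a mean of 0.04 ± 0.38, and Prmt5, that of symmetric methylation, 0.27 ± 0.59 (SD, n = 5 each). Prmt5 was positive on all arrays but array 1. Prmt2 had -0.99, 0.17, -1.57, 0.15 and -0.22 across arrays 1 to 5, with the negative values on arrays 1 and 3 deepest, and with these left out its mean was 0.03. Prmt3, on 4 arrays, had a mean of -0.46, negative on 3 of them and positive on array 5, and Prmt6 a mean of -0.73 ± 1.01 (SD, n = 4).

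Acetyltransferases and the bromodomain proteins that read acetylated histones held some of the most repeatable member spots, and also some of the least repeatable. Kat2b, also known as PCAF, had -0.55, -0.20, -0.39, -0.62 and -0.50 across arrays 1 to 5, and Brd2, a BET protein, had -0.48, -0.64, -0.42, -0.52 and -0.39 across arrays 1 to 5 on spot 8144. Their SDs of 0.16 and 0.10 were, with the 0.19 of Mbd3, the smallest of the 89 member spots on all arrays. Of these 89 spots 3.37% had an SD under 0.2, against 2.08% of single-symbol spots on all arrays. The means of -0.45 for Kat2b and -0.49 for Brd2 had adjusted p of 0.455 and 0.442 in limma. The median of all genes was itself -0.39, 0.01, -0.43, 0.13 and -0.27 on arrays 1 to 5, so on arrays 1 and 3 these genes differed little from a typical gene. The other Brd2 spot had a mean of -0.19 ± 0.39 (SD, n = 5). Kat2a, the GCN5 acetyltransferase, had -1.03, -0.09, -0.42, -0.02 and -0.12 across arrays 1 to 5, negative on every array, while the 2 Kat7 spots had means of 0.06 and -0.13. Kat6b was among the least repeatable, at 1.03, -1.37, -1.51, -0.58 and 3.99 across arrays 1 to 5. Brd3 had -1.41, -0.33, -0.65, -0.67 and -0.49 across arrays 1 to 5 on spot 9967, all negative, with an adjusted p of 0.432, but -0.66, 2.60, -2.99, 1.06 and 0.84 across arrays 1 to 5 on spot 4509. Brd8, of the Tip60 acetyltransferase complex, had means of -0.27 and -0.45, and Brd1 0.18.

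Among the remodellers of the Chd and Baz families and Cecr2, the bromodomain partner of an ISWI ATPase, 4 spots had a positive and 12 a negative mean. Positive means made up 34.2% of single-symbol spots. Cecr2 had 2.64, 0.65, 1.62, 2.33 and 0.95 across arrays 1 to 5, positive on every array, with a mean of 1.64 ± 0.86 (SD, n = 5) and an adjusted p of 0.381. It is on a single spot, so no other spot bears on it. Baz1b, of the WICH remodelling complex, had 0.69, 3.59, 0.96, -1.45 and 4.55 across arrays 1 to 5 on spot 3702, positive on 4 arrays but ranging over several log2 units, and its other tested spots had means of 1.16 and -0.13. Baz2a, a silencer of ribosomal DNA, had -4.25, 0.38, -2.05 and -1.77 across arrays 1, 3, 4 and 5, negative on 3 of 4 arrays. Baz1a, its relative in the ACF complex, had -0.75, -0.05, -0.18, -0.38 and -0.57 across arrays 1 to 5, small and negative on every array. Baz2b had means of -0.50 and -0.58 on its spots, the first with an SD of 2.44. Chd7, the gene of CHARGE syndrome, had -1.75, 0.32, -0.44, 0.31 and 0.99 across arrays 1 to 5, and Chd9 had means of -0.38 and 0.46 on its spots. Chd1l, which responds to DNA damage, had means of -0.11 and -0.43. Chd2 had means of -1.49 and -1.17 on its spots, the lower one with array 2 at -5.45.

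DNA methylation was represented by few genes. Mbd2, which binds methylated DNA and can replace Mbd3 in NuRD, had 2.02, 2.85, 3.35, 2.11 and 0.48 across arrays 1 to 5 on spot 2589. All 5 values were positive, lowest on array 5, with a mean of 2.16 ± 1.09 (SD, n = 5) and the smallest adjusted p of any member, 0.293. Spot 12679 of the same gene had 0.93, 0.55, -5.50 and -2.24 across arrays 1, 2, 4 and 5, positive on arrays 1 and 2 and strongly negative on arrays 4 and 5. Dnmt3a, a de novo DNA methyltransferase, had -1.69, 0.48, -0.89, 0.02 and 0.56 across arrays 1 to 5, negative on arrays 1 and 3 and near 0 or positive on the rest. Mbd6 was near 0 in the mean, at -0.07 ± 1.35 (SD, n = 4).

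Among the PHD finger and Ing proteins, many of them readers of histone methylation, 7 spots had a positive and 10 a negative mean. Positive means made up 34.2% of single-symbol spots. Phf2, related to the histone demethylases, had -1.31, -0.58, -1.44, -0.27 and -1.11 across arrays 1 to 5 on spot 9800 and -1.14, -0.04, -1.07, -0.44 and -1.11 across arrays 1 to 5 on spot 11944. Both spots were negative on every array, with means of -0.94 ± 0.50 and -0.76 ± 0.50 (SD, n = 5 each) and adjusted p of 0.426 and 0.432. Averaged over its spots Phf2 stayed under the all-gene median throughout. Phf21a, a subunit of the CoREST repressor that silences neuronal genes outside neurons, also had negative means on its spots, -0.51 ± 0.39 and -0.64 ± 1.47 (SD, n = 5 each). Ing5, a subunit of histone acetyltransferase complexes, had 0.99, 3.56, 2.09 and 0.97 across arrays 1, 2, 3 and 4 on spot 11629 and 1.30, -1.36, -0.73 and 0.27 across arrays 1, 2, 3 and 5 on spot 13570, positive on the one and mixed on the other. Ing4, its relative, had means of -0.30 and 0.22. Phf20, which reads methylated lysines, had 4 tested spots with means of 0.31, -0.14, 2.30 and 0.34, and on array 2 spot 14276 reached 6.35. Phf10, a progenitor SWI/SNF subunit, had 1.83, 0.70, -0.26, -0.40 and 0.98 across arrays 1 to 5, high on array 1 and negative on arrays 3 and 4. Phf5a, a splicing factor subunit rather than a chromatin protein, had a mean of -0.09 ± 0.45 (SD, n = 5), and Phf14 and Phf23 had means of -0.30 and -0.33.

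The Rbbp prefix gathers unrelated proteins named for binding Rb. Beside Rbbp4, Rbbp5, a subunit of the H3K4 methyltransferase complexes, had means of 0.21 and -0.40. Rbbp6, a ubiquitin ligase, had -0.58 and 0.08, and Rbbp9, a serine hydrolase, 0.21 ± 0.41 (SD, n = 5).

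Some members kept to one side of the all-gene median throughout. On the positive side there were 8 of 71 members, or 11.3%, against 8.64% of all genes, namely Cbx3, Cecr2, Kat7, Kdm5b, Mbd2, Rbbp4, Rbbp9 and Setd5. On the negative side there were 3, or 4.23%, against 9.04%, namely Mbd3, Phf2 and Setd3. These are gene values, taken only from spots on all 5 arrays, and single spots of some of these genes differed. Kdm5b spot 1278 had -0.95 and -0.91 on arrays 1 and 3, below the all-gene medians of -0.39 and -0.43. Mbd2 rests on spot 2589 alone, and its spot 12679, without a value on array 3, had a mean of -1.57. Setd3 spot 17062 had 0.62 on array 3. Of the 89 single spots on all arrays, 5 were positive throughout, or 5.62% against 3.39% of single-symbol spots, and 13 negative throughout, or 14.6% against 12.8%. Whether these shares differ was not tested.

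Spots of 1 gene often disagreed. Of the 30 members with 2 or more tested spots, 12 (40%) had means of the same sign on all of them, against 54.5% of the 989 such genes in the table. With exactly 2 spots on all 5 arrays the shares were 37.5% of 16 members and 63.2% of 517 genes, and the median gap between the spots was 0.37 and 0.40 log2. The gaps were of like size, while a shared sign was less frequent among the members, a difference that was not tested. The gap was widest for Mbd2 at 3.73, Kdm5b at 3.72, Phf20 at 2.44, Ing5 at 2.03 and Kmt2c at 2.02. All of the positive genes under an unadjusted p of 0.05 that had another tested spot (Mbd2, Kdm5b and Ing5) had one of the opposite sign, as did 2 (Ezh1 and Brd3) of the 4 such negative genes. Positive means made up 34.2% of single-symbol spots, and the difference between the signs was not tested.

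Spots missing on 1 array were also less repeatable. The median SD of member spots was 1.23 for the 30 spots on 4 arrays and 0.61 for the 89 on all 5, and among single-symbol spots 1.32 and 0.61. The share of single-symbol spots at an unadjusted p under 0.05 on the positive side was 6.63% on 4 arrays, where 3 of 30 members were, and 2.31% on 5, where 4 of 89 were. On the negative side it was 6.28% on 4 arrays, with 2 of 30 members, and 6.15% on 5, with 6 of 89.

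**Figure D4:**
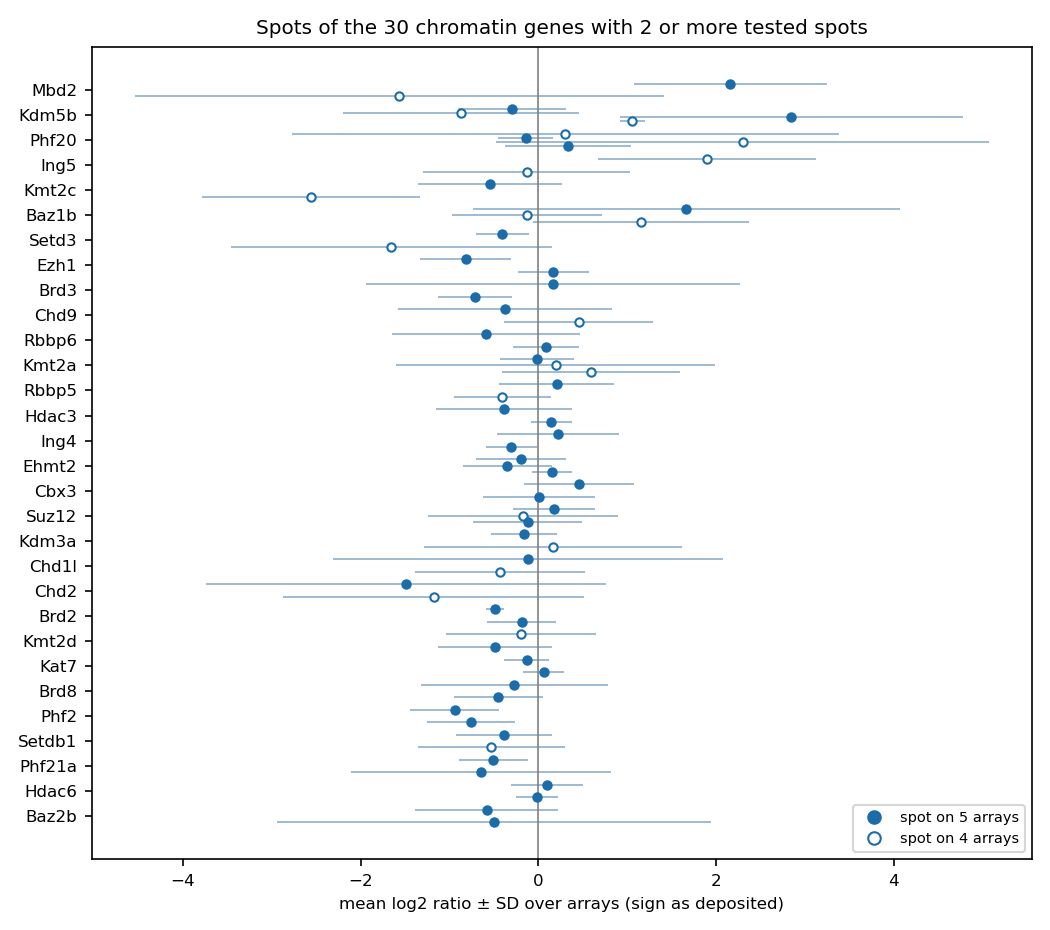
Mean log2 ratio and SD over arrays (x axis, sign as deposited) of every tested spot of the 30 chromatin genes with more than 1, ordered by the gap between their spots. Filled points were measured on all 5 arrays and open points on 4; the spots of Mbd2 and Kdm5b lie on both sides of 0, while those of Phf2 lie together.

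Other genes of chromatin regulation that the prefixes do not take were read from a list of 89 symbols, chosen with earlier results known. Of these, 46 genes were tested on 72 spots, and 4 spots were positive and 5 negative at an unadjusted p under 0.05, where 5.52% and 5.9% of all spots were, with 0 past adjustment. Their median relative to all genes was -0.01, -0.04, 0.17, -0.06 and -0.04 across arrays 1 to 5, with 40 genes measured. Wdr5, a core subunit of the H3K4 methyltransferase complexes, had 2.06, 2.63, 1.99 and 1.42 across arrays 1, 2, 3 and 5 on one spot, all positive, but means of -0.22 and -0.09 on the others. Mta1, a NuRD subunit, had a mean of 1.15 ± 0.45 (SD, n = 4) on one spot and 0.21 ± 0.50 (SD, n = 5) on the other, and Ncoa2, a coactivator, stood at 0.81, 2.23, 1.61 and 1.37 across arrays 1, 2, 3 and 5. Asxl1, of the Polycomb deubiquitinase complex, was positive on every array that measured it on both spots, with means of 1.89 ± 1.27 (SD, n = 4) and 0.41 ± 0.20 (SD, n = 5). Pbrm1, a SWI/SNF subunit, was negative on the 4 arrays that measured one spot, with a mean of -1.24 ± 0.76 (SD, n = 4), and had means of -0.62 and -0.30 on the others.

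Actl6b, the SWI/SNF actin-related subunit of neurons, was negative on every array on both of its spots, where 12.8% of single-symbol spots on all 5 arrays were. It had -0.91, -0.57, -1.36, -0.55 and -0.39 across arrays 1 to 5 on one and -2.16, -0.26, -0.56, -0.10 and -0.46 across arrays 1 to 5 on the other, with means of -0.76 ± 0.39 and -0.71 ± 0.83 (SD, n = 5 each) and adjusted p of 0.432 and 0.455. Its counterpart in progenitors, Actl6a, had -3.62, 1.49, 1.39, 0.44 and -1.47 across arrays 1 to 5, with no common direction. Dpf3, another SWI/SNF subunit of the list, had 0.90, -0.28, -2.92 and -0.45 across arrays 1, 2, 4 and 5, also without a common direction. Hmgb2, a chromatin protein abundant in dividing cells, had 2.16, 0.14, 2.63, 0.73 and -0.20 across arrays 1 to 5, highest on arrays 1 and 3 like the genes of cell division. Hmgb2 was chosen for mention after its values were seen, as were Actl6a and Dpf3.

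As a description over the 71 member genes, which are no replicates of each other, Pearson's r between pairs of arrays ran from -0.03 for arrays 1 and 2 to 0.55 for arrays 1 and 3, where all 3739 genes gave -0.07 and 0.42. Arrays 3 and 4 gave 0.44 over members and 0.09 over all genes. The genes of a pair of arrays share the same 2 hybridisations.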

How the data were processed

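Log2 ratios were deposited by the authors for 17328 spots on each of 5 arrays. The images had been read by GenePix Pro 4.1.1.29 at wavelengths of 635 and 532 nm, per the labels, with a local background taken off and without normalization. No label names the dye of each RNA, the direction of the ratio or the filter behind empty cells. The log2 scale was read from the values.

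The repeated value 16.61 was treated as a filler and set to missing (none fell on a member spot), and each array was centred on its median. The 192 ACTB control spots were left out of the test. For spots on at least 4 arrays the mean ratio was set against 0 in limma 3.58.1 (an intercept in lmFit, then eBayes; R 4.3.3), with Benjamini-Hochberg adjustment over all 10036 spots and a threshold of 0.05. Gene values are means of spots on all 5 arrays. Spots are named by the platform annotation, and a spot with several symbols stayed unnamed. The fit was checked on simulated data with 200 changed spots. At the spread of these arrays, an adjusted p under 0.05 recovered 0% of log2 changes of 1, 25.5% of 2 and 79% of 4. A change of the size of most member means would therefore mostly go undetected. Spots described are those with the smallest p in each direction and family, known Rb partners, and the most and least repeatable or discordant spots. The other members are mostly given by their means, and those given by array (among them Chd4, Arid4b, Cbx2, Ing3, Setd3, Baz1a, Chd7, Dnmt3a and Phf10) were chosen after their values were seen. Members, lists and rules were chosen with earlier results of these data known. The number of arrays and their spread limit the precision. Alternatives were other centring, scaling, filters, tests and arrays left out.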

Additional observations from a re-analysis of the deposited data

Results flagged for a closer look

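Array 3 was far from the other 4 in 2 of 67 values examined in this way, where chance gives 3.35. One was the median of the 3 measured lysine demethylase genes (Kdm1b, Kdm3a and Kdm5b), with 1.72 above all genes on array 3 and 0.03 to 0.43 elsewhere. The other was the median of the 40 further chromatin genes, with 0.17 on array 3 and -0.06 to -0.01 elsewhere.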

How the results depend on the processing

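No member spot passed the adjusted threshold under any of the 20 alternatives in which it was recomputed, and over all spots the count was 0 in each as well. The count of positive member spots at an unadjusted p under 0.05, 7 in the report, was 4 with spots on all 5 arrays only, where fewer spots were tested and 3.98% of all spots were positive, and 2 on arrays 4 and 5 alone, where 4.14% were. It ran from 7 to 9 without each array in turn, when 5.11% to 6.85% of all spots were positive. The negative count, 8 in the report, was 17 without centring, when 18.3% of all spots were negative at that p, 4 with scan focus as a covariate (4.22% of all spots), 1 on arrays 1 to 3 alone (2.05%) and 5 with arrays 1 and 3 left out (3.8%). It ran from 2 to 6 without each array in turn, when 3.4% to 4.53% of all spots were negative. Where arrays were left out, spots with values on fewer than 4 arrays were also taken, so the spots tested differed from those of the report. The cause of these shifts was not tested. The split of all calls moved with centring, with 554 positive and 592 negative spots in the report, 775 and 363 with centring on the spots of all 5 arrays, 742 and 385 on single-symbol spots and 270 and 1837 without centring. The median of chromatin genes relative to all genes is a difference within each array, over spots on every array used. Other centring, array weights or the number of arrays asked of a tested spot therefore could not change it. With these and the remaining alternatives, the median of chromatin genes relative to all genes stayed between 0.04 and 0.08. That of the further chromatin genes, 0.0056, was 0.15 on arrays 1 to 3 alone and ran from -0.046 (without array 3) to 0.12 (without array 4) when arrays were left out in turn. Of the 53 described spots, 34 kept their sign in every alternative, among them those of Mbd2 (spot 2589), Cecr2, Kdm5b (spots 6342 and 17120), Mbd3, Phf2, Brd2 and Kat2b. The spots named here were picked partly for having the same sign on every array that measured them. Leaving out, weighting or rescaling arrays therefore could not turn their means. Cbx1 spot 240 and Rbbp4 spot 14465 also kept their sign, but their means of 0.49 and 0.48 were 0.032 and 0.0238 without centring. Of the 1031 values of described spots under alternatives, 13 kept their sign but moved by 1 SD or more, all of them under another centring or none. Without centring, the mean took the other sign, at -0.0018 for Cbx3 spot 5811, -0.29 for Hdac1 spot 15443, -0.06 for Hdac2 spot 6423, -0.31 for Hdac3 spot 15811, -0.26 for Phf20 spot 8498, -0.12 for Phf20 spot 15000 and -0.28 for Suz12 spot 503. With centring on the spots of all 5 arrays, the mean took the other sign, at 0.081 for Ing5 spot 13570, 0.012 for Phf20 spot 12505, 0.043 for Suz12 spot 4124 and 0.035 for Suz12 spot 5092. With centring on single-symbol spots, the mean took the other sign, at 0.053 for Ing5 spot 13570, 0.014 for Suz12 spot 4124 and 0.019 for Suz12 spot 5092. With arrays scaled to a common spread, the mean took the other sign, at -0.11 for Phf20 spot 8498. With array weights, the mean took the other sign, at -0.48 for Phf20 spot 8498. With scan focus as a covariate, the mean took the other sign, at 0.0035 for Ing5 spot 13570. On arrays 1 to 3, scanned at focus position 10, the mean took the other sign, at 0.40 for Baz2b spot 9437, 0.74 for Mbd2 spot 12679 and 0.023 for Phf20 spot 12505. On arrays 4 and 5, scanned at focus position 0, the mean took the other sign, at 0.018 for Hdac3 spot 7419, 0.20 for Kdm5b spot 1278, -1.90 for Phf20 spot 8498, 0.15 for Rbbp6 spot 4511 and 0.37 for Smarca4 spot 4051. With arrays 1 and 3 left out, the mean took the other sign, at 0.12 for Hdac3 spot 7419, 0.13 for Kdm5b spot 1278, -1.90 for Phf20 spot 8498, -0.15 for Phf20 spot 15000, 0.032 for Prmt2 spot 4425, 0.26 for Smarca4 spot 4051 and 0.18 for Suz12 spot 5092. Without each array in turn, the means that changed sign ran from -1.13 to 1.10 for Phf20 spot 8498, -0.61 to 0.28 for Ing5 spot 13570, -0.75 to 0.77 for Setd1b spot 870, -0.45 to 0.31 for Suz12 spot 4124 and -1.18 to 0.34 for Baz2b spot 9437. Each ratio already pairs the mutant and wild-type RNA of its array, and the labels give no further pairing of the arrays, which form a single group. Without intensities, signal over background was not part of any filter.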
